A study of Mus musculus with 6 samples.

Results

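Hox genes encode the homeodomain transcription factors that mark position along the body, and they were read here in myospheres, floating clusters grown from mouse hind-leg muscle cells. Members were all probe sets whose annotation gives 1 gene symbol made of Hox, a cluster letter from a to d and a number. The mouse has 39 such genes in 4 clusters. Of these, 33 had a single-gene probe set, among 18193 genes measured in all, with 48 probe sets between them. The chip MOE430A carried 37 of these probe sets and MOE430B carried 11. The other 6 genes were not analysed here. There was 1 kind of sample: cells from the hind leg of male Balb/c mice, of an age the labels do not give, sorted by flow cytometry for the surface antigen Sca1. They grew for 4 days in neurocult medium with LIF, EGF, B27 and an additive spelled bf6f, and RNA came from 2000000 cells at passage 1. Replicates 1 to 3 were each hybridised to both Affymetrix chips, 6 arrays in all, with no second tissue, limb or treatment. Nothing in the labels shows that the replicates are separate cultures, so p-values below measure only the spread between these arrays, which may be technical.

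Each of the 4 clusters holds its genes in the order of the body axis along which they act. Genes of low number (paralogue groups 1 to 3) are set from the hindbrain on, those of middle number in the neck and chest, and those of groups 9 to 13 in the lower back, limbs and tail. Genes of 1 number in different clusters are paralogues with overlapping roles. In the mouse limb, groups 9 and 10 act mainly in the upper segment, group 11 in the middle one and group 13 in the foot, with HoxA and HoxD genes leading and Hoxc10 typical of the hind limb. Fibroblasts and other connective tissue cells of adult mammals are known to keep much of the Hox code of their site of origin.

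Signals are the deposited MAS5 intensities, on a linear scale. Since the chips differ in scale and different probe sets cannot be set against each other, each probe set was read only against a background limit of its own array. This limit was the 95th percentile of probe sets for genes of other tissues, such as odorant receptors and hair keratin-associated proteins. In replicates 1 to 3 its value was 818.6, 783.5 and 821.3 for MOE430A, and 3294, 2952 and 2578 for MOE430B. Being above means exceeding the limit on each of the 3 arrays of a chip, and a gene counts as above through any 1 such probe set. The distance from the limit was also tested with limma on log2(signal / limit), with p-values adjusted over all probe sets of the chip. A gene not above the limit is not shown to be silent, and in a mixed culture fewer cells of a type and less RNA per cell cannot be told apart. Of the markers for the cells present, mesenchymal Pdgfra, Col1a2, Dcn and Twist2 were all above, with Pdgfra 14.7 to 17.3 times the limit. The myogenic genes Pax7, Myf5, Myod1 and Myog (0 of 4) and the blood and endothelial genes Ptprc, Pecam1, Cdh5 and Cd68 (0 of 4) were not above on every array, although Myod1, Myog, Cdh5 and Cd68 each passed on 2 of 3 and Ptprc on 1. The gene of the sort antigen, Ly6a, was not analysed here. Cd34, listed with it as a sort and progenitor marker, was above on every array, at 12.1 to 14.1 times the limit.

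Of the 33 Hox genes, 9 were above the limit on every array (27.3%), where 36.1% of all genes were. They were Hoxa3, Hoxa5, Hoxa9, Hoxa10, Hoxa11, Hoxc6, Hoxc8, Hoxc10 and Hoxd8. By cluster these were 5 of 9 measured HoxA genes, 0 of 9 HoxB, 3 of 7 HoxC and 1 of 8 HoxD. By position they were 1 of 7 in groups 1 to 3, 4 of 12 in groups 4 to 8, 4 of 9 in groups 9 to 11 and 0 of 5 in groups 12 and 13. Hoxb2 passed on 2 of 3 arrays and Hoxc9 on 1, and the other 22 genes passed on no array by any probe set. The share depends on how many probe sets a gene has, and the measured HoxA, HoxB, HoxC and HoxD genes have 16, 11, 11 and 10. Among genes with 1 probe set, 3 of 22 Hox genes were above beside 22% of all genes. With 2 probe sets 4 of 8 were above beside 42.2%, and with 3 or more 2 of 3 beside 59.1%. These shares cover both chips together. On MOE430A alone, 7 of 31 Hox genes were above (22.6%), beside 42.7% of all genes. With the 99th percentile as limit 5 Hox genes were above, namely Hoxa3, Hoxa9, Hoxa11, Hoxc8 and Hoxc10, beside 27% of all genes.

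**Figure D1:**
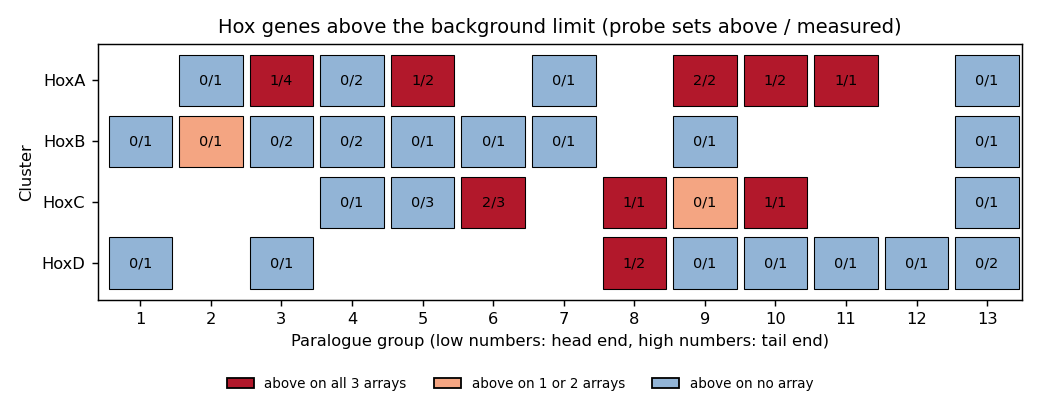
Map of the 33 measured Hox genes by cluster (rows) and paralogue group (columns), coloured by the number of arrays on which the best probe set exceeded the background limit. The fraction is probe sets above on all 3 arrays over probe sets measured. HoxA 9 to 11, Hoxc10 and 5 genes of groups 3 to 8 were above, and no HoxB gene and no measured gene of groups 12 and 13 was.

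Counted by probe set, 9 of 37 Hox probe sets on MOE430A were above on every array (24.3%), where 35.1% of all its probe sets were, and 2 of 11 on MOE430B (18.2%), where 9.95% were. The limma test placed the same numbers above, 9 on MOE430A, beside 32.6% of all, and 2 on MOE430B, beside 8.44%. It placed 24 Hox probe sets below the limit on MOE430A, beside 47.8% of all, and 7 on MOE430B, beside 73.8%. The remaining 4 and 2 were not separated from the limit. The median Hox gene, by its probe set nearest above, lay at -1.04 on the log2 scale of signal over limit, and the median of all genes at -0.42.

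In the HoxA cluster the run from Hoxa9 to Hoxa11 was above the limit. Hoxa9, a posterior gene that also acts in blood progenitors, gave 6482, 6973 and 7231 in replicates 1, 2 and 3 by one of its probe sets. All 3 arrays lay close together, 7.92 to 8.90 times the limit (log2 distance 3.09 ± 0.09 SE, limma adjusted p = 7.45e-08). Its second probe set, on the same chip, gave 874, 1395 and 1365, and replicate 1 was only 1.07 times the limit (limma adjusted p = 0.0215). Hoxa10, which patterns the lumbar spine and the thigh, gave 1165, 1535 and 2086 on MOE430A, 1.42 to 2.54 times the limit (0.94 ± 0.17 SE, limma adjusted p = 0.00183). The replicates spread 1.79-fold, with replicate 3 highest. Its probe set on MOE430B gave 1455, 1805 and 502, below that chip's limit on every array (limma adjusted p = 0.00939), so the call rests on 1 of 2 probe sets.

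Hoxa11, needed for the bones of the lower leg and forearm, gave 2777, 1809 and 2826 by its single probe set. Every array was above, by 2.31 to 3.44 times, with replicate 2 lowest (1.58 ± 0.14 SE, limma adjusted p = 3.57e-05). Hoxa13, the gene of the foot and hand, stood on the other side, at 516, 507 and 473, or 0.576 to 0.648 times the limit. The 3 arrays differed by only 1.09-fold, and the distance below the limit passed the test (-0.70 ± 0.22 SE, limma adjusted p = 0.0213). The antisense transcript Hoxa11os, which is no member, read 430, 357 and 405 on MOE430A and 53, 66.2 and 69.8 on MOE430B, under the limit throughout.

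The HoxD paralogues of these genes were all under the limit. Hoxd9 gave 417, 88.5 and 139, Hoxd10 gave 63.6, 175 and 246, and Hoxd11 gave 49.5, 52 and 301. These are 0.0605 to 0.510 times the limit, with no array near it, although Hoxd11 spread 6.08-fold between replicates. All passed the test on the lower side, with Hoxd9 at -2.23 ± 0.52 (SE, limma adjusted p = 0.0058), Hoxd10 at -2.53 ± 0.52 (adjusted p = 0.0033) and Hoxd11 at -3.14 ± 0.63 (adjusted p = 0.00304). Hoxd12 gave 58.7, 47.5 and 59.7 and Hoxd13, which acts in the digits, 23.1, 16.8 and 27.5 on MOE430A and 1244, 1912 and 1749 on MOE430B. The second Hoxd13 probe set came nearer its limit, 0.378 to 0.678 times, and was still below it (-0.86 ± 0.33 SE, limma adjusted p = 0.027).

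**Figure D2:**
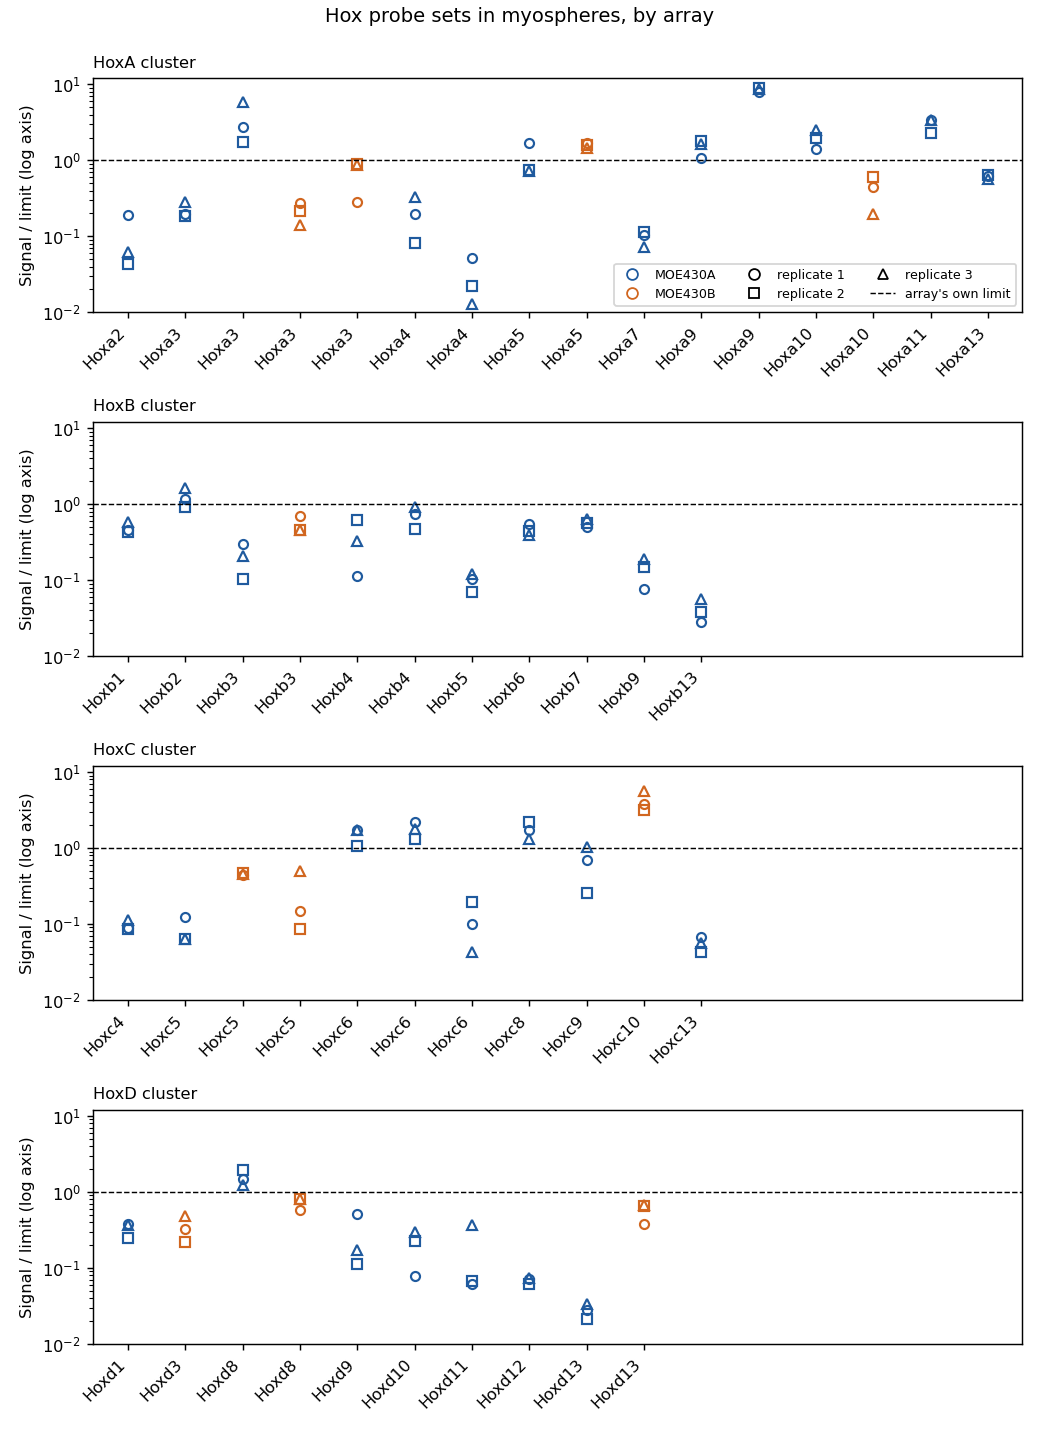
Signal over the background limit of the same array (log axis, no unit) for all 48 Hox probe sets, ordered within each cluster by paralogue number, with a column per probe set and a symbol per replicate; colour gives the chip and the dashed line the limit. Hoxa9, Hoxa11 and Hoxc10 lie above the line with all 3 symbols, and Hoxd9 to Hoxd13 lie below it.

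Start-site windows of the paralogues 10 and 11 are shown as examples of pairs that split between the clusters, HoxA above the limit and HoxD below; Hoxa9 and Hoxd9 split likewise. The sequences are RefSeq promoter windows of the mouse assembly GRCm38.p6, from 250 bases before to 50 after an annotated start, 5′ to 3′ on the gene's strand. Capitals mark matches, on either strand, to the CCAAT box, the TATA box as TATAAA, the Pbx-Hox composite TGATTNAT and the Cdx motif TTTATG. Hoxa10 (chr6:52234890-52235189, minus strand) is 1 of 2 windows of its gene, picked for its matches, and Hoxa11 lies at chr6:52245761-52246060 on the minus strand. Hoxd10 lies at chr2:74691641-74691940 and Hoxd11, the window richer in CpG of 2, at chr2:74682073-74682372, both on the plus strand.
Hoxa10: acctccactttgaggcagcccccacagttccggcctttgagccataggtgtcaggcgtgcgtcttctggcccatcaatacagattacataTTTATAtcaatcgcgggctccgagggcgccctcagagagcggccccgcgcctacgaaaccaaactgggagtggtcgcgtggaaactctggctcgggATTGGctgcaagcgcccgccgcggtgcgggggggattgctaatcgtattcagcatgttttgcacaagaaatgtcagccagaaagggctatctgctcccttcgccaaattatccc
Hoxa11: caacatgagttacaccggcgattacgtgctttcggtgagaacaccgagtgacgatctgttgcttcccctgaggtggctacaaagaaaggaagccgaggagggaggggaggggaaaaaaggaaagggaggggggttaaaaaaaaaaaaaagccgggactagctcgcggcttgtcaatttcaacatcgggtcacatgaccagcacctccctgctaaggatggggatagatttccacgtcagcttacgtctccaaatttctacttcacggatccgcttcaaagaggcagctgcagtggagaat
Hoxd10: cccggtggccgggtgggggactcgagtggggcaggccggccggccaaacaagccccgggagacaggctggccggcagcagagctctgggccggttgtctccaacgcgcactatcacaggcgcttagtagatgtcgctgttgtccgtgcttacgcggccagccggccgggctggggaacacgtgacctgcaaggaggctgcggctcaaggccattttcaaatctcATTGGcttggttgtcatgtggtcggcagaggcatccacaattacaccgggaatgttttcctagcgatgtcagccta
Hoxd11: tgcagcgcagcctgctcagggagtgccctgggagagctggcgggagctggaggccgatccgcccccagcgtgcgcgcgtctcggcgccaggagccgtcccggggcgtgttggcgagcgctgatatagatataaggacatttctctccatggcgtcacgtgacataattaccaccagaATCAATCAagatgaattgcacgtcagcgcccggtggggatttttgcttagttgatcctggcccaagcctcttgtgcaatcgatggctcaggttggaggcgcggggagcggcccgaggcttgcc

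The printed Hoxa10 window holds 1 CCAAT and 1 TATAAA, the Hoxd10 window 1 CCAAT and the Hoxd11 window 1 TGATTNAT, while that of Hoxa11 holds none of the 4 motifs. They hold 21, 15, 22 and 25 CpG as printed, where the median of all 32851 windows is 7, and the windows not printed of Hoxa10 and Hoxd11 hold 12 and 4, with no match in Hoxa10 and 1 TTTATG in Hoxd11. The windows of Hoxa9 and Hoxd9, not printed, hold 4 and 20 CpG and none of the 4 motifs. Windows were given for 22 Hox genes, 19 of them measured. The 7 windows of the 6 genes above the limit had a median of 15 CpG, and the 14 windows of the 13 genes not above had 17. CCAAT stood in 3 of those 7 and 9 of those 14, and in 37.4% of all windows. TATAAA stood in 1 and 1 of them (13.6% of all), TGATTNAT in 0 and 2 (3.22% of all) and TTTATG in 0 and 3 (11.9% of all). A match is a description of letters, and the data hold no measure of binding or chromatin.

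In the HoxC cluster, Hoxc10 was above the limit, at 12552, 9474 and 14432 on MOE430B. Every array was 3.21 to 5.60 times the limit, with replicate 2 lowest (2.03 ± 0.16 SE, limma adjusted p = 2.66e-07). Hoxc8, a gene of the lower chest and of limb-innervating motor neurons, gave 1435, 1697 and 1072 on MOE430A, 1.31 to 2.17 times the limit (0.77 ± 0.16 SE, limma adjusted p = 0.00384). Hoxc6, a chest-level gene, was above by 2 of 3 probe sets. One gave 1426, 822 and 1406, with replicate 2 only 1.05 times the limit, and the other, of shared sequence, gave 1780, 1045 and 1448. The third lay far below, at 82.3, 151 and 35.1. Such probe sets of 1 gene can target different transcript ends, and which end each reads is not given in the sources used here.

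Hoxc9, between Hoxc8 and Hoxc10, gave 576, 202 and 841, or 0.257 to 1.02 times the limit. Only replicate 3 exceeded it and replicate 2 was 4.17-fold lower than replicate 3, so the probe set was not separated from the limit (-0.81 ± 0.39 SE, limma adjusted p = 0.0887). Hoxc4 at 77.0 ± 13.1 and Hoxc13, a gene of hair and nails, at 45 ± 11.3 (SD, n = 3) were far under it on all arrays. All 3 probe sets of Hoxc5 were below, at 0.0625 to 0.504 times the limit.

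Hoxd8, next in its cluster to Hoxd9, was the 1 HoxD gene above the limit. It gave 1200, 1536 and 1013 on MOE430A, 1.23 to 1.96 times the limit (0.61 ± 0.16 SE, limma adjusted p = 0.0103). On MOE430B a probe set of shared sequence gave 1910, 2392 and 2060, 0.580 to 0.810 times that chip's limit and not separated from it (limma adjusted p = 0.128). Hoxd1 gave 269 ± 65.2 on MOE430A and Hoxd3 gave 984 ± 306 on MOE430B (SD, n = 3). Both were below on every array, and so were the 2 probe sets that the annotation shares between Hoxd3 and Hoxd4, at 151 ± 31.6 and 33.9 ± 24.6.

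No HoxB gene was above the limit. Hoxb2, which acts in the hindbrain, came nearest, at 965, 715 and 1342, above on replicates 1 and 3 and 0.913 times the limit on replicate 2 (0.27 ± 0.19 SE, limma adjusted p = 0.22). Hoxb4, known for its part in blood stem cells, reached 0.469 to 0.920 times the limit by 1 probe set and was not separated from it (limma adjusted p = 0.0791). Its other probe set, at 284 ± 199 (SD, n = 3), was below. The remaining 7 genes passed on the lower side by every probe set. Among them Hoxb1, the gene of rhombomere 4, gave 398 ± 75.3, Hoxb3 165 ± 81.2 on MOE430A and 1596 ± 596 on MOE430B, and Hoxb5 79.2 ± 21.7. Hoxb6 gave 373 ± 64.9, Hoxb7 456 ± 56.4, Hoxb9 111 ± 47 and Hoxb13, the last of the cluster, 32.8 ± 11.8 (SD, n = 3 each). A probe set shared by Hoxb7 and Hoxb8 gave 361 ± 109 and was under the limit as well.

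Of the anterior HoxA genes, Hoxa3 and Hoxa5 were above. Hoxa3, needed for thymus and parathyroid, gave 2265, 1353 and 4811 by 1 of its 4 probe sets, 1.73 to 5.86 times the limit. Replicates spread 3.56-fold, the widest among the 11 Hox probe sets above, and the distance still passed (1.60 ± 0.29 SE, limma adjusted p = 0.00178). The second MOE430A probe set, filed in the annotation under the same source sequence, gave only 162, 144 and 232. On MOE430B the others gave 916, 640 and 359, and 947, 2631 and 2258, never above. The 4 probe sets therefore disagree, and the gene's call rests on 1.

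Hoxa5, which patterns the neck and lung, was above by a probe set of shared sequence on MOE430B alone, at 5675, 4704 and 3736, 1.45 to 1.72 times the limit (0.66 ± 0.19 SE, limma adjusted p = 0.00642). On MOE430A it gave 1374, 580 and 597, above on replicate 1 only, and was not separated from the limit (limma adjusted p = 0.87). Once such shared-sequence probe sets were dropped, Hoxa5 was not above. Hoxa2, which specifies the second pharyngeal arch, gave 80.5 ± 66.8, and Hoxa7 77.7 ± 16.7. Hoxa4 gave 164 ± 101.5 and 23.4 ± 16.7 by its 2 probe sets (SD, n = 3 each). None of these came near the limit, the highest array being 0.326 times it.

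Within paralogue groups the calls thus differed between clusters. In group 9, Hoxa9 was above and Hoxb9, Hoxc9 and Hoxd9 were not, although Hoxc9 was not separated from the limit. In group 10, Hoxa10 and Hoxc10 were above and Hoxd10 was not, and in group 11 Hoxa11 was above and Hoxd11 was not. Both measured genes of group 8, Hoxc8 and Hoxd8, were above, while 0 of 4 measured genes of group 13 and Hoxd12 were. In groups 1, 2, 4 and 7, pooled here only because each had none above, 0 of 9 measured genes were above. Most of these genes have 1 probe set. Of all genes 36.1% were above, of those with 1 probe set 22%, and with MOE430A alone 42.7%. A difference between paralogues was not tested, as signals of different probe sets have no common scale.

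Hox probe sets above the limit on MOE430A varied by a median SD of 0.37 on the log2 scale between replicates, and all probe sets above it by 0.19. Hoxa9 had the smallest SD, 0.09, and Hoxa3 the largest, 0.89. Replicate 2 was the lowest of 3 for 21 of 37 Hox probe sets on MOE430A (56.8%) and for 40.2% of all its probe sets, and on MOE430B for 3 of 11 beside 32%. Leaving out replicate 2 put Hoxb2 above the limit and changed no other Hox gene's call, and leaving out replicate 1 or 3 changed none. As a call needs every array to exceed its own limit, leaving out an array can only add genes. It therefore could not test whether the genes above would lose their call.

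Hox proteins bind DNA with TALE homeodomain partners of the Pbx and Meis families. Of 8 measured partners 2 were above the limit (25%, beside 36.1% of all genes). Pbx3 gave 9190, 6466 and 6283 on MOE430B, 2.19 to 2.79 times the limit (1.30 ± 0.17 SE, limma adjusted p = 2.45e-05). Meis2, which marks the upper limb segment, gave 7542, 4439 and 4141, 1.5 to 2.29 times (0.82 ± 0.19 SE, limma adjusted p = 0.0027). Both calls come from probe sets of shared sequence, and without those 0 of 8 were above. Pbx2 gave 730.1 ± 82.5 and Pbx4 122.8 ± 73.9 (SD, n = 3), neither above. Meis1, picked after its values were seen, passed on 2 of 3 arrays at 0.856 to 1.06 times the limit. The median partner lay at -0.42 on the log2 scale, equal to that of all genes.

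Polycomb proteins hold Hox clusters silent and trithorax proteins keep them active. Of Polycomb genes 15 of 22 were above (68.2%) and of trithorax genes 7 of 10 (70%), beside 36.1% of all genes, with medians of 0.98 and 0.69 on the log2 scale beside -0.42. Many of these genes have several probe sets (60 for the 22 Polycomb genes and 22 for the 10 trithorax genes). Of all genes with 1, 2 and 3 or more probe sets, 22%, 42.2% and 59.1% were above. The trithorax genes above, other than Kdm6b, have 1 or 2 probe sets each. On MOE430A alone 14 of 21 Polycomb and 4 of 7 trithorax genes were above, beside 42.7% of all genes. Whether the number of probe sets or the chip accounts for these shares was not tested. Above on every array were the histone binders Rbbp7 and Rbbp4, at 31884 ± 3994 and 27776 ± 1222, which also belong to other complexes, and Suz12, a core of the silencing complex PRC2, at 6666 ± 430.2 (SD, n = 3 each). Phc2, Cbx6, Aebp2, Rnf2, Jarid2, Ezh1 and Eed were above too. The methyltransferase Ezh2 was not, at 668, 580 and 722, 0.740 to 0.879 times the limit and not separated from it (limma adjusted p = 0.165). On the trithorax side Kmt2a, the methyltransferase that maintains Hox expression, gave 2008, 1362 and 1647, 1.74 to 2.45 times the limit (1.03 ± 0.13 SE, limma adjusted p = 0.000323). Its partner Wdr5 gave 4332 ± 333, and Kmt2b, Ash2l, Rbbp5, Dpy30 and the demethylase Kdm6b were above as well.

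**Figure D3:**
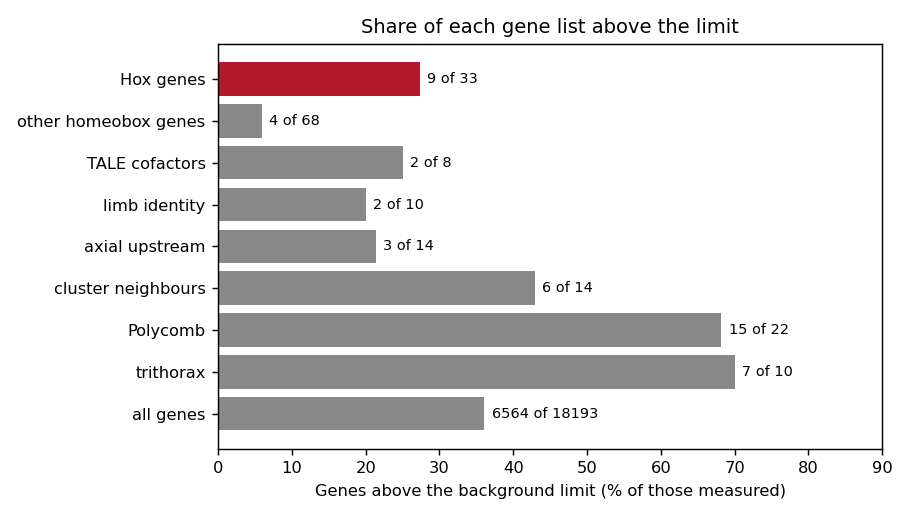
Share of the measured genes of each list that were above the background limit on all 3 arrays of a chip (percent, bars from 0), with counts beside the bars. Hox genes (9 of 33) stood below all genes (36.1%) and above other homeobox genes (4 of 68), and Polycomb and trithorax genes had the highest shares.

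Homeobox genes of other families were above in 4 of 68 (5.88%, beside 36.1% of all genes), with a median of -1.13 on the log2 scale beside -1.04 for Hox. The 4 were Meox2, a muscle and limb gene, at 4299 ± 924, Six2 at 1146 ± 100.2, and on MOE430B Shox2, of the upper limb bones, at 5993 ± 1425 and Emx2 at 4824 ± 324.3 (SD, n = 3 each). The head genes Otx1 and Otx2 lay far under the limit, at 0.0177 to 0.0674 times it, and Emx1 reached 0.566 to 0.953 times. The count rose to 9 of 68 without replicate 2, beside 38.5% of all genes. Of genes that neighbour the clusters 6 of 14 were above (42.9%), near the 36.1% of all genes: Skap2 and Hibadh beside HoxA, at 4461 ± 183 and 5558 ± 604, and Mtx2, Cbx5, Smug1 and Snx11. Evx1 and Evx2, homeobox genes at the posterior end of HoxA and HoxD, were not, at 187 ± 137 and 692 ± 336 (SD, n = 3 each), though Evx2 passed on replicate 1.

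Genes that set axial position upstream of Hox, in the Cdx family and in retinoid signalling, were above in 3 of 14 (21.4%), beside 36.1% of all genes. Cdx1, Cdx2 and Cdx4 gave 28.8 ± 3.93, 36.7 ± 22.5 and 249 ± 58.3, all below, and so was the retinoic acid enzyme Aldh1a2, at 346 ± 109 (SD, n = 3 each). The retinoic acid receptor Rarg gave 3471, 2850 and 3158, 3.64 to 4.24 times the limit (1.96 ± 0.10 SE, limma adjusted p = 1.17e-06), and Cyp26b1, which breaks retinoic acid down, gave 14493, 13694 and 11575 on MOE430B, 4.40 to 4.64 times. The third was Gmnn, which binds Hox and Polycomb proteins, at 1846 ± 375. The receptors Rara and Rarb, named after their values were seen, lay at 0.0331 to 0.240 and 0.801 to 1.58 times the limit.

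Of limb identity genes 2 of 10 were above (20%, beside 36.1% of all genes), Prrx1 and Gli3. Prrx1, a marker of limb mesenchyme, gave 14588, 9603 and 16168, 12.3 to 19.7 times the limit, with replicate 2 lowest (4.02 ± 0.14 SE, limma adjusted p = 1.86e-07). Gli3, a hedgehog effector, gave 8120 ± 572 on MOE430B (SD, n = 3). The hind-limb factor Pitx1 straddled the limit at 829, 776 and 1003, 0.990 to 1.22 times (0.10 ± 0.16 SE, limma adjusted p = 0.588). Tbx4 of the hind limb gave 1157, 1487 and 1947 on MOE430B and Tbx5 of the fore limb 88.7, 404 and 206 on MOE430A, both below on every array. The hind-limb initiator Isl1 was below too, at 189 ± 152.

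**Figure D4:**
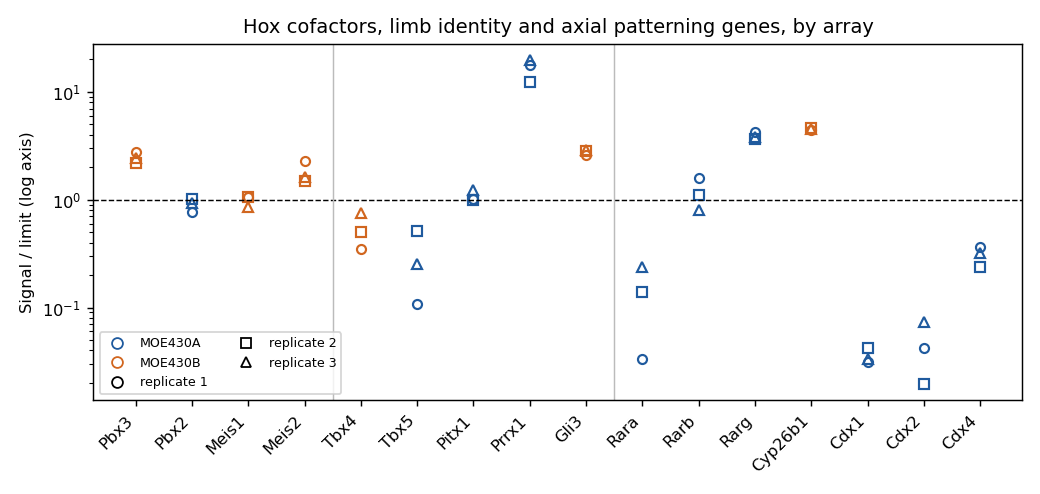
Signal over the background limit of the same array (log axis, no unit) for Hox partners (left), limb identity genes (middle) and axial patterning genes (right), with a symbol per replicate, colour for the chip and the dashed line at the limit. Each gene is shown by its probe set with the highest mean over the limit; Prrx1, Gli3, Rarg, Cyp26b1, Pbx3 and Meis2 lie above the line on all 3 arrays, and the Cdx genes lie below it.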

How the data were processed

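Total RNA from 1 kind of culture was hybridised in 3 replicates to MOE430A and MOE430B. What the authors deposited is a linear signal intensity per probe set. The submitters' processing notes name MAS5, and its version is not given in the sources used here. The mean after trimming 2% from each end was 1500 on every array, so the deposited signal had been scaled to 1 level. Probe sets were named from GEO's platform annotation, and symbols were brought up to date by Entrez ID from RefSeq's GRCm38.p6 gene table (20364 of 20393 single-gene probe sets matched on MOE430A and 14499 of 14674 on MOE430B). Probe sets with several genes or none and 64 controls per chip stayed out of gene results.

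The limit used 152 reference probe sets on MOE430A and 42 on MOE430B, of which 2.63% and 4.76% passed their own limit. The test took the limit as fixed: limma 3.58.1 in R 4.3.3, with an intensity trend, each chip by itself, Benjamini-Hochberg adjustment over all its non-control probe sets and a threshold of 0.05. It was tested on simulated data, with probe sets placed at the limit and at a log2 distance of 3 above it. Among the Hox probe sets above, only 1 of Hoxa9 lay that far, and recovery at smaller distances was not tested. Python 3.11.15, numpy 2.4.6, pandas 2.3.3 and matplotlib 3.10.9 did the rest. Precision is limited by the number of arrays, 3 per chip. Members and lists were chosen with earlier results of these data known, and list counts carry no test. Named were all Hox genes and, of other lists, the first 4 genes and up to 8 members above the limit. Of genes with several probe sets outside the Hox genes, the printed values are those of the probe set with the highest mean over the limit. Alternatives changed the limit, its reference genes, the normalization, the probe sets, the chip, the call and the replicates. Shared sequence means an ID suffix of _x_at or _s_at.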

Additional observations from a re-analysis of the deposited data

Results flagged for a closer look

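Hoxb5os, an antisense transcript of the HoxB cluster that lies outside the rule for members, gave a signal above the limit on every array. Its MOE430B probe set read 3801, 4600 and 3724, or 4042 ± 485 (SD, n = 3), 1.15 to 1.56 times the limit, although its distance from the limit missed the threshold (log2 distance 0.46 ± 0.21 SE, limma adjusted p = 0.0524). The sense gene Hoxb5 gave 79.2 ± 21.7 on MOE430A and was below. It was the only one above of 8 probe sets with Hox in the annotation that the rule left out, 5 for antisense transcripts and 3 with several symbols. Groups of 3 arrays were too small for a search for outlying samples.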

How the results depend on the processing

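Each of 12 counts was recomputed under 11 or 12 alternatives, and 124 of 143 values lay within 1.5 times the count reported. Calls held under every alternative run for 5 of the 9 Hox genes above the limit, Hoxa3, Hoxa9, Hoxa11, Hoxc8 and Hoxc10, and for 20 of the 24 not above. No alternative dropped the 1 of 4 Hoxa3 probe sets on which its call rests. MOE430A alone was not run for Hoxc10, which it does not measure. Not every alternative could change a call in both directions. The 90th percentile, the array median and leaving out a replicate could only add genes above the limit. The 99th percentile, fewer probe sets and MOE430A alone could only remove them. Hoxa10 and Hoxc6 lost theirs with the 99th percentile limit, Hoxd8 also with 1 probe set per gene, and Hoxa5 with the 99th percentile, with shared-sequence probe sets dropped and with MOE430A alone. The 1 probe set per gene was that of highest mean signal on either chip. For Hoxd8 this took the MOE430B probe set, at 2121, over the MOE430A one, at 1250, although MOE430B has the higher signal scale and limit. With the array median as limit Hoxb2, Hoxb3, Hoxc5 and Hoxd13 came above, and Hoxb2 also with the 90th percentile and without replicate 2. With the 99th percentile 5 of 33 Hox genes were above, including 2 of 19 in paralogues 1 to 8, beside 27% of all genes. So were 1 of 8 TALE cofactors, 4 of 10 trithorax genes and 1 of 68 other homeobox genes. By limma 4 of 48 Hox probe sets were. With the array median 53.9% of all genes were above. The lists then gave 8 of 19 Hox genes of paralogues 1 to 8, 5 of 8 TALE cofactors and 5 of 14 axial upstream genes. They also gave 5 of 10 limb identity genes, 17 of 68 other homeobox genes and 10 of 14 cluster neighbours. With the 90th percentile 11 of 68 other homeobox genes were above, beside 41.7% of all genes. With shared-sequence probe sets dropped, and with MOE430A alone, 0 of 8 TALE cofactors were above, beside 33.7% and 42.7% of all genes. MOE430A alone has fewer probe sets and measured fewer trithorax and other homeobox genes. It left 4 of 7 trithorax genes, 1 of 10 limb identity genes and 2 of 63 other homeobox genes above. Leaving out 1 replicate gave 9 to 10 Hox genes, 9 to 10 Hox probe sets by limma and 6 to 9 other homeobox genes. Of all genes 37.5% to 38.6% were then above. Shares by number of probe sets were only described, and causes were not tested. No paired analysis was possible because the arrays form 1 condition and no result compares groups of samples. Hoxb2, above on 2 of 3 arrays, was not separated from the limit with this number of arrays.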
